A study of Mus musculus with 50 samples.

Results

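The genes described here are 7 genes best known from skeletal muscle: Pygm, Ckm, Mb, Casq1, Pvalb, Tnnt3 and Acta1. They were found on the array by the gene symbol of its platform annotation, and every probe that carried only that symbol was kept. The annotation named 9930 genes over 20355 probes. Of these, 6 of the 7 genes had 7 probes: 1 each for Pygm, Ckm, Mb, Casq1 and Pvalb, and 2 for Tnnt3. No probe was named Acta1. Pygm, Mb, Pvalb and Casq1 were selected on their spinal cord ratios, as leading members of a muscle list in an earlier analysis of these data, and Tnnt3 on its testis ratio. Their cord values, and the testis values of Tnnt3, are therefore a description and carry no test.

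Wobbler mice with both copies of a recessive Vps54 mutation (wr/wr) were compared with wild-type mice (wt), in testis and in spinal cord. Each array carried wr/wr RNA in one dye, Cy5 or Cy3, and a pool of wild-type RNA of the same organ in the other. In testis, 10 wr/wr mice were each hybridised on 4 arrays, 2 in each dye orientation. In spinal cord there were 3 wr/wr RNAs: pool1 and pool2, each combining 4 mice on 4 arrays, and the cord of mouse 5995 on 2 arrays. The 9 mice of the cord RNAs were all among the 10 testis mice. Each RNA counted as 1 replicate. The wild type of a tissue was a single pool, of 10 mice by the sample labels and of 6 by the labelling protocol, so no test below includes the spread among wild-type mice. Vps54 had no probe with its symbol, and the ages of the mice are not given in the labels.

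Skeletal muscle stores glucose as glycogen and releases it through glycogen phosphorylase, while creatine kinase refills ATP during contraction and myoglobin holds oxygen in the fibre. Contraction starts when calcium leaves the sarcoplasmic reticulum and binds troponin on the actin filament, and the fibre relaxes as calcium is bound and pumped back. Several of these genes are also used outside muscle: Pygm is expressed in astrocytes of the brain and spinal cord, and Pvalb, encoding the calcium buffer parvalbumin, marks fast-spiking inhibitory interneurons and proprioceptive sensory neurons. Wobbler mice lose motor neurons, and the males make sperm without a normal acrosome.

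The promoters of Pygm, which had the lowest mean cord ratio of these genes, and of Casq1, which passed the test in testis, are printed to show where the E-box lies, the site of muscle regulatory factors such as MyoD. The sequences are from RefSeq on GRCm38.p6, 250 bases before to 50 after the gene's start, read 5′ to 3′ on the gene's strand. Pygm lies at chr19:6384158-6384457 on the plus strand and Casq1 at chr1:172219846-172220145 on the minus strand. Capitals mark E-boxes, written CANNTG, which reads the same on both strands.
Pygm: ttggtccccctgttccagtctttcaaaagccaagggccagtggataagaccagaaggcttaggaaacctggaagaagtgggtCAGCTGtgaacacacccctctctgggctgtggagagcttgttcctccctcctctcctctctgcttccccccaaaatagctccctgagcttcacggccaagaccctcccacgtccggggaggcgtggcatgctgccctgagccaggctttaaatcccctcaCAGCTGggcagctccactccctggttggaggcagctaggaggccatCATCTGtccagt
Casq1: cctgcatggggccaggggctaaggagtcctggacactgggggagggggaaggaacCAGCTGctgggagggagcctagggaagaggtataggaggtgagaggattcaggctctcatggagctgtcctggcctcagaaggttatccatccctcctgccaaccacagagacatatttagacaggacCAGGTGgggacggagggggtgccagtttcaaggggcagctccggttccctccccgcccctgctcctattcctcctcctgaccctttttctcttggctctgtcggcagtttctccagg
Pygm held 3 E-boxes and Casq1 held 2. E-boxes were common, present in 72.3% of the 32851 mouse promoters of that length. Of the 7 genes, 6 had a promoter entry. Ckm had 1 E-box, Acta1 had 2, Mb had 2 to 4 depending on which of its 3 starts was read, and Pvalb had 2 at one start and 0 at the other. A MEF2 site, looked for on both strands, was present at the other Pvalb start only (3.19% of all promoters), and a CArG box (1.63% of all) and a TATAAA (13.6% of all) only in the Acta1 promoter. These matches are letters in a window and do not show that a factor binds there.

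The deposited values are log2 ratios centred near 0, and they hold no level, so neither the tissue labels nor the abundance of a gene could be checked against expression levels. Values are given as wr/wr over wild type, a reading that is likely but not stated in the labels. A sign had been turned on all arrays with the mutant RNA in Cy3 before deposit: negative zero was written for 0 of 651 zeros on the 25 arrays with the mutant RNA in Cy5, and for all 616 zeros on the 25 arrays with it in Cy3. All arrays therefore ran in 1 direction, but if that direction were wild type over wr/wr, every sign below would turn. A testis array gave values for 19070 to 20189 probes, and a cord array for 18338 to 20034. The SD between repeat arrays of the same RNA and dye had a median over probes of 0.26 in testis and 0.40 in cord. In testis, 2494 of 20218 probes tested passed limma's test at an adjusted p of 0.05 (Benjamini-Hochberg), which is 12.3%, with 7.28% higher in wr/wr and 5.06% lower. In cord, limma called 0 of 17055 probes (0%), the smallest adjusted p was 0.542, and 1476 probes had an unadjusted p under 0.05.

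Pygm encodes the muscle form of glycogen phosphorylase, which frees glucose-1-phosphate from glycogen. In testis its ratio was -0.36 in the lowest mouse, -0.03 at the median and 0.52 in the highest. The testes scattered to both sides of 0, with 6 of 10 below, and the mean of 0.02 ± 0.26 (SD, n = 10) did not pass limma's test (adjusted p = 0.895). In cord the ratio was -0.68 in pool1, -0.63 in pool2 and -0.94 in mouse 5995, a mean of -0.75 ± 0.16 (SD, n = 3), or 0.596 of the wild-type pool. All 3 cord RNAs lay well below 0 and also below the lowest testis.

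The cord value of Pygm held on every array. With the mutant RNA in Cy5 the arrays gave -0.43 and -0.39 for pool1, -0.26 and -0.58 for pool2 and -0.95 for mouse 5995. With it in Cy3 they gave -0.76 and -1.12 for pool1, -0.97 and -0.72 for pool2 and -0.92 for mouse 5995. All 10 arrays were below 0, in both dye orientations, which was so for 1.63% of the 14706 probes with a value on all 10 cord arrays. Of all probes tested in cord, 2.17% had a lower mean than Pygm. Since Pygm was picked on its cord ratio, these shares are a description only, and the 10 arrays are repeats of 3 RNAs. The SD between repeat cord arrays was 0.19, and 16.3% of probes had a smaller one. In bulk tissue, fewer cells of a type and less RNA per cell cannot be told apart.

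**Figure D1:**
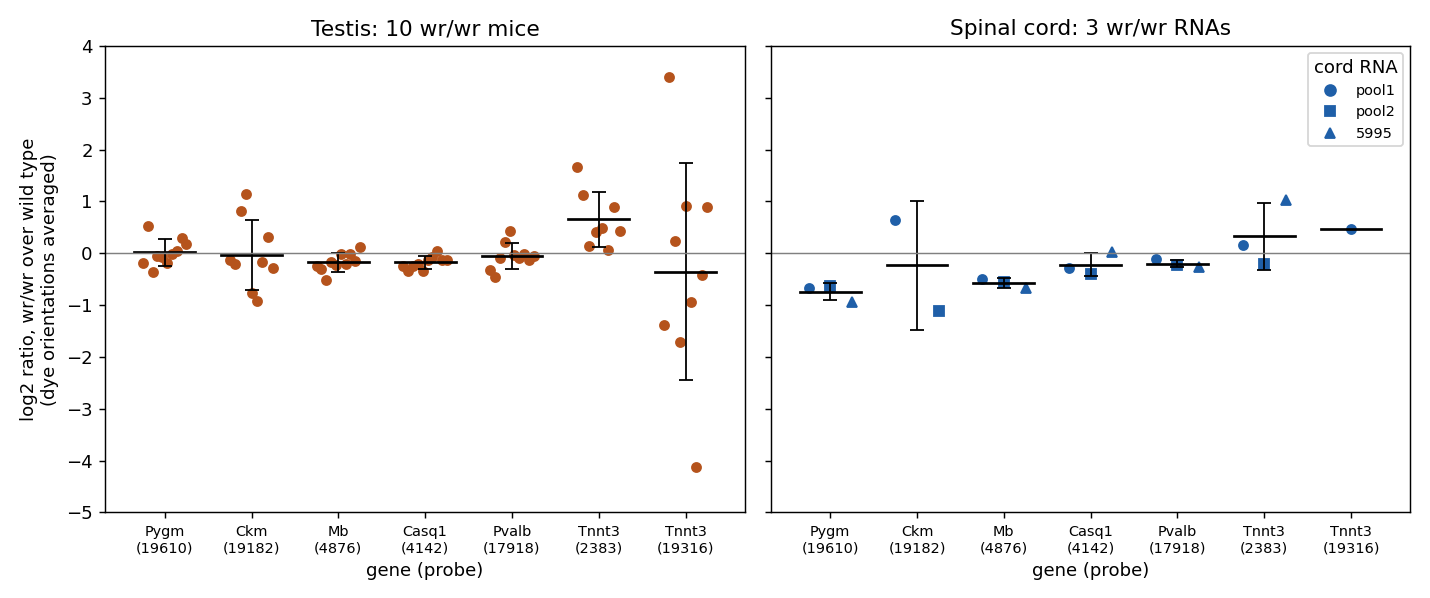
Log2 ratio of wr/wr over wild type for the 7 probes, testis on the left (each point 1 mouse) and spinal cord on the right (each point 1 RNA). The horizontal bar is the mean and the whisker 1 SD over RNAs. In cord, Pygm, Mb and Pvalb lie below 0 in all 3 RNAs, and the second Tnnt3 probe spreads from -4.13 to 3.40 in testis.

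Ckm encodes the cytosolic creatine kinase of muscle. Its probe had a value on 30 of 40 testis arrays and 7 of 10 cord arrays. In testis the ratio was -0.93 in the lowest mouse, -0.16 at the median and 1.14 in the highest, with a mean of -0.03 ± 0.68 (SD, n = 9; limma adjusted p = 0.942). In cord it was 0.65 in pool1 and -1.11 in pool2, with no value in both dyes for mouse 5995, so it was not tested there. The cord RNAs lay on opposite sides of 0. Within each cord pool the dye orientations differed by more than the pools did: pool2 gave -3.55 in Cy5 and 1.33 in Cy3. The SD between repeat testis arrays was 1.29, larger than in 95.3% of probes.

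Mb encodes myoglobin, the oxygen-binding globin of heart and of oxidative skeletal muscle fibres. In testis the ratio was -0.52 in the lowest mouse, -0.19 at the median and 0.13 in the highest. Although 9 of 10 testes were below 0, the mean of -0.17 ± 0.18 (SD, n = 10) did not pass the test (limma adjusted p = 0.0644). It depended on the dye: the testis mean was -0.42 with the mutant RNA in Cy5 (adjusted p = 0.0255) and 0.08 with it in Cy3 (adjusted p = 0.705). Without mouse 5997, whose testis was the only one above 0, the mean was -0.21 (limma adjusted p = 0.0315). Taking out the only testis above 0 lowers the mean by construction. Of 20 alternatives, only 2 gave a call for Mb in testis, the Cy5 arrays alone and this one.

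In cord the ratio of Mb was -0.50 in pool1, -0.55 in pool2 and -0.67 in mouse 5995, a mean of -0.58 ± 0.09 (SD, n = 3), or 0.671 of the wild-type pool. All 3 cord RNAs were below 9 of the 10 testes, and 3.78% of probes tested in cord had a lower mean. Of the 10 cord arrays, 9 were below 0, the exception being a pool2 array with the mutant RNA in Cy3, at 0.21. The lowest cord array, at -1.57, was of the same pool in Cy5. The cord mean was -0.78 in Cy5 and -0.37 in Cy3. In cord, 5.51% of probes with 10 values had at least 9 arrays below 0. Since Mb was picked on its cord ratio, these shares are a description only.

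Casq1 encodes calsequestrin, the protein that stores calcium inside the sarcoplasmic reticulum of fast fibres. In testis it was lower in wr/wr: the ratio was -0.34 in the lowest mouse, -0.17 at the median and 0.05 in the highest. The mean of -0.18 ± 0.12 (SD, n = 10), or 0.884 of the wild-type pool, passed limma's test with an adjusted p of 0.0229, and 9 of 10 testes were below 0. The change was small, but the probe was precise, with 32 of 40 testis arrays below 0 and an SD between repeat arrays of 0.11, which only 2.43% of probes undercut. The testis mean was -0.08 in Cy5, with 7 of 10 mice below 0, and -0.27 in Cy3, with 10 of 10 below 0. The call was lost on the Cy5 arrays alone (adjusted p = 0.308) and without mouse 6069 (mean -0.17, adjusted p = 0.0537).

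In cord the ratio of Casq1 was -0.28 in pool1, -0.41 in pool2 and 0.03 in mouse 5995, a mean of -0.22 ± 0.22 (SD, n = 3). The pools were below 0 and mouse 5995 was at about 0. That value of mouse 5995 averaged its Cy5 array at 0.69 and its Cy3 array at -0.64. All Cy3 arrays of the cord were below 0, from -1.03 to -0.23, and 4 of 5 Cy5 arrays were below 0, from -0.30 to -0.05.

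Pvalb encodes parvalbumin, which binds calcium in the cytosol of fast muscle fibres and of some neurons. In testis the ratio was -0.46 in the lowest mouse, -0.07 at the median and 0.42 in the highest, and 8 of 10 were below 0. The mean of -0.06 ± 0.25 (SD, n = 10) did not pass limma's test (adjusted p = 0.638). In cord the ratio was -0.11 in pool1, -0.22 in pool2 and -0.26 in mouse 5995, a mean of -0.20 ± 0.08 (SD, n = 3). The 3 cord RNAs were below 0 but inside the range of the testes, and only 6 of the 10 cord arrays were below 0. The cord mean was -0.06 in Cy5, where 4 of 5 arrays lay between 0.01 and 0.12, and -0.34 in Cy3.

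**Figure D2:**
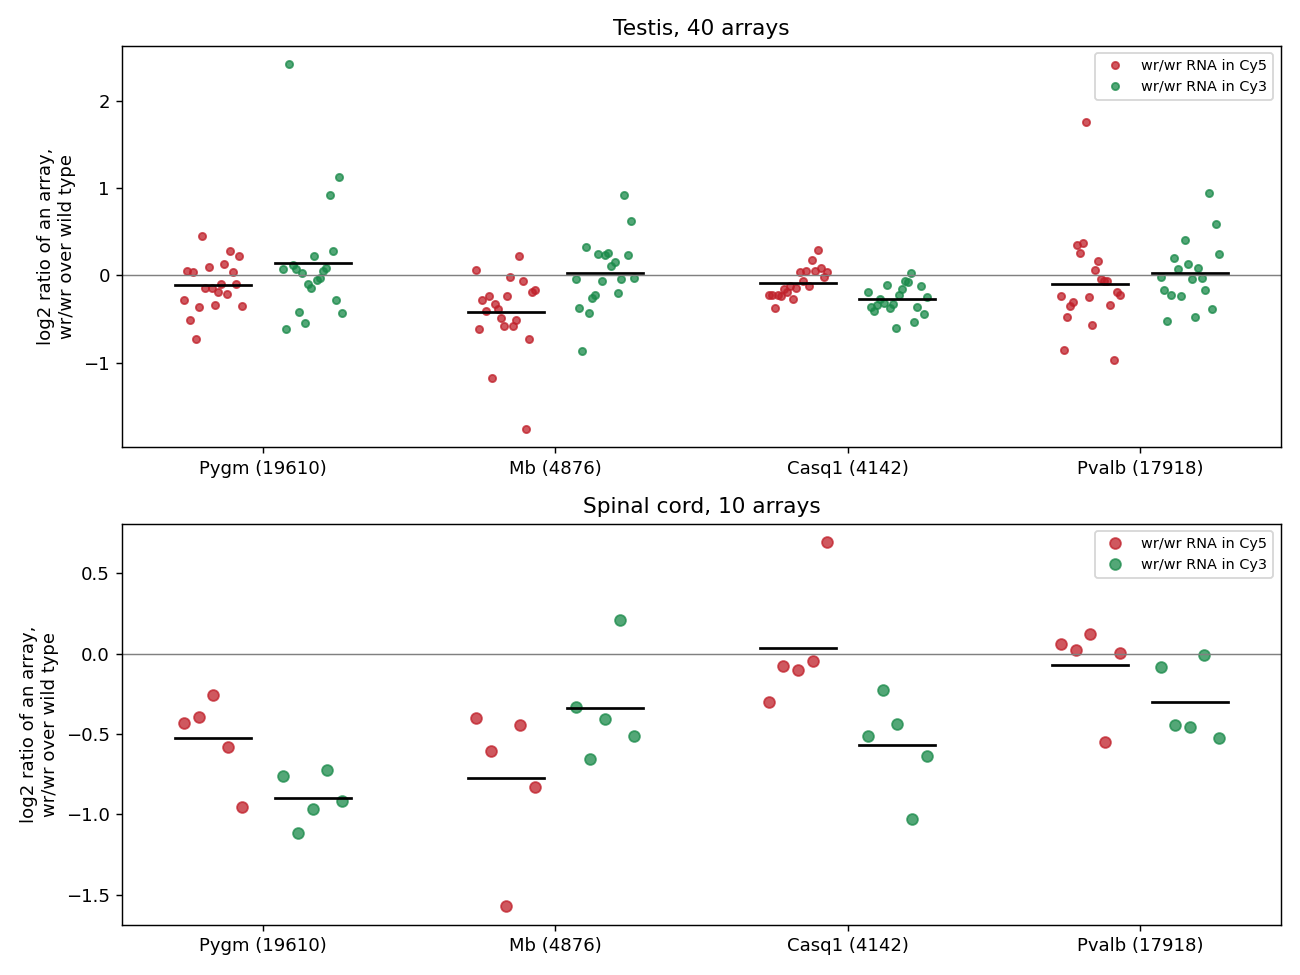
Log2 ratio of each array for the 4 genes with a value in all RNAs, 40 testis arrays above and 10 cord arrays below, by the dye of the wr/wr RNA. Each point is 1 array and the bar the mean over arrays; Pygm is below 0 on all 10 cord arrays, and the Cy5 and Cy3 means lie apart for all 4 genes in cord, most for Casq1.

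Tnnt3 encodes the fast-fibre troponin T, which ties the troponin complex to tropomyosin. Its probes gave different pictures. The first (number 2383) had a value on 28 of 40 testis arrays. In the 8 testes with both dyes its ratio was 0.07 in the lowest, 0.46 at the median and 1.66 in the highest, a mean of 0.65 ± 0.54 (SD, n = 8). All 8 were above 0, and the probe had been chosen for this value. The dye orientations had opposite signs, with a mean over these 8 testes of -0.14 in Cy5 and of 1.44 in Cy3. In cord this probe gave 0.15 in pool1, -0.21 in pool2 and 1.04 in mouse 5995, a mean of 0.33 ± 0.64 (SD, n = 3). The cord value of mouse 5995 averaged an array at 3.15 in Cy5 with an array at -1.07 in Cy3.

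The second Tnnt3 probe (number 19316) gave a testis mean of -0.35 ± 2.10 (SD, n = 9), with -4.13 in the lowest mouse, -0.42 at the median and 3.40 in the highest. These extremes rested on a single array each, at -16.46 and 16.47, a size read here as a ratio with 1 channel at its floor, which was not tested. In cord it had both dyes in pool1 only, at 0.47, and was not tested. The probes of Tnnt3 therefore disagreed in sign in testis, and the mean over both was 0.06.

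Set side by side, testis minus cord came to 0.77 for Pygm, 0.40 for Mb, 0.14 for Pvalb and 0.04 for Casq1, given without a test since the cord ratio chose these genes. Of 17005 probes tested in both tissues, limma called 3604 for that difference (21.2%), 10.8% with a higher and 10.4% with a lower ratio in testis. When the testes of the mice behind each cord RNA were taken as its partner, 0 were called, and 2148 had an unadjusted p under 0.05. The testes of the very mice that made up the cord RNAs lay near 0 for Pygm. The testes of the 4 mice of pool1 averaged -0.06 and ranged from -0.36 to 0.18, against -0.68 in their pooled cord. Those of the 4 mice of pool2 averaged -0.01, against -0.63 in their cord. Mouse 5995 gave -0.07 in testis and -0.94 in cord. For Mb, the same comparison gave -0.19 in testis and -0.50 in cord for pool1, -0.11 and -0.55 for pool2, and -0.22 and -0.67 for mouse 5995.

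In all, 3 of the 5 member probes tested in cord (Pygm, Mb and Pvalb) were below 0 in all 3 RNAs, where 20.7% of all probes were. Pygm and Mb were also below 0 in each RNA in each dye, where 4.19% of all probes were. These shares belong to the contrast on which the genes were picked.

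The difference between the dye orientations, Cy5 minus Cy3, was not used to pick the genes. In testis 949 of 20218 probes passed limma's test of that difference (4.69%), 3.96% with Cy5 higher and 0.732% with Cy5 lower, and in cord 0 of 17055 did (0%, smallest adjusted p 0.267, 2329 with an unadjusted p under 0.05). Leaving out mouse 5906 reduced the testis count to 1, and leaving out most of the other mice singly reduced it nearly as far. No member probe passed. Casq1 came out at 0.19 ± 0.18 in testis, above 0 in 10 of 10 mice (SD, n = 10; adjusted p = 0.0995). Tnnt3 (probe 2383) came out at -1.57 ± 1.26 in testis, below 0 in 7 of 8 mice (SD, n = 8; adjusted p = 0.0598 by limma). Both passed once arrays were scaled to a common spread, with adjusted p of 0.0361 for Casq1 and 0.0302 for Tnnt3. With that scaling 2015 probes were called in testis, 71.3% of them with Cy5 higher, against 84.4% without it. For Mb it was -0.50 ± 0.65 in testis, below 0 in 9 of 10 mice (SD, n = 10; adjusted p = 0.143). In cord the dye difference was 0.31 for Pygm, -0.41 for Mb, 0.72 for Casq1 and 0.28 for Pvalb, so the sign of the dye difference was not shared among these genes.

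**Figure D3:**
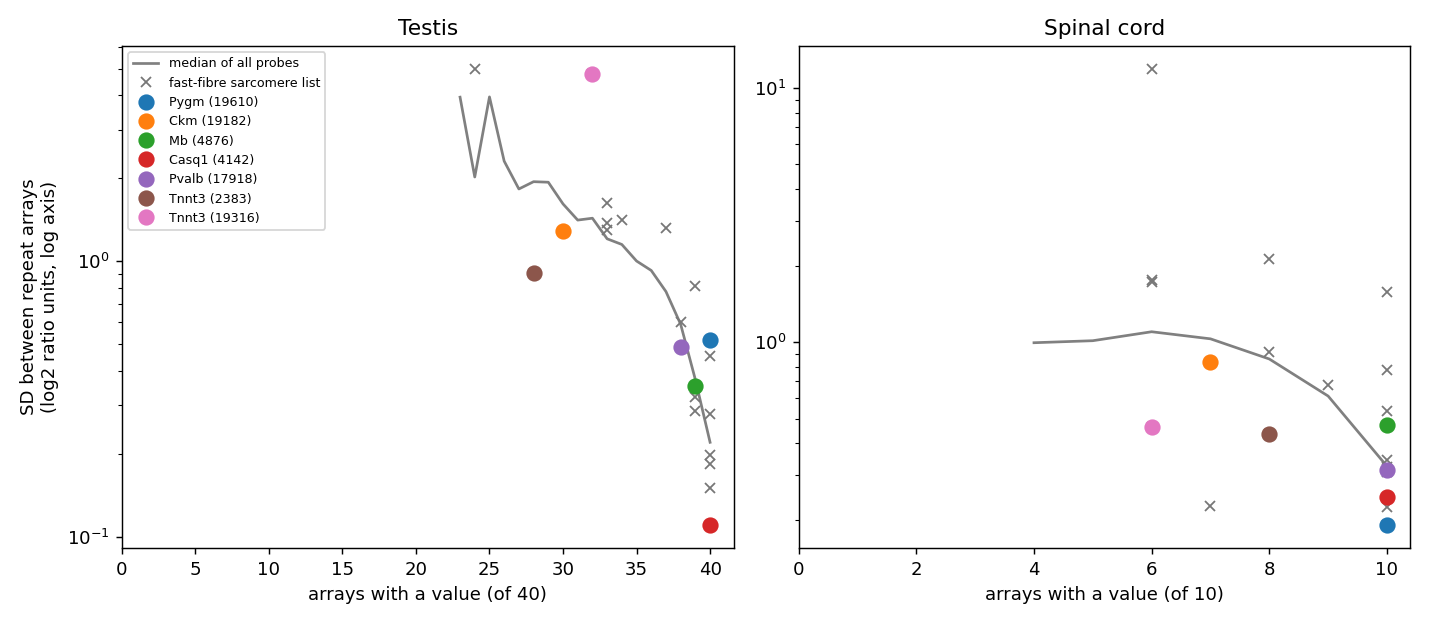
SD between repeat arrays of the same RNA and dye (log axis, log2 ratio units) against the number of arrays with a value, testis on the left and cord on the right. The grey line is the median of all probes, drawn where at least 20 probes share a number of arrays, and crosses are the fast-fibre sarcomere list; Casq1 in testis and Pygm in cord have the smallest SDs of the member probes, and the second Tnnt3 probe in testis the largest.

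How far the genes varied together over the 13 RNAs was described after taking off each tissue's mean. Among Pygm, Mb, Casq1 and Pvalb, Pearson's r ran from -0.334 for Pvalb with Pygm to 0.308 for Mb with Pygm. Over 16636 probes with all 13 values, other genes came far closer by this measure. Pygm was most like Dnajc17 (r = 0.885) and Atat1 (0.881), Mb like Eng (0.846) and Fam149a (0.839), Casq1 like Ass1 (0.865) and Phc2 (0.861), and Pvalb like Acap3 (0.856) and Tcf7l1 (0.843). These are the top of a very large number of pairs over RNAs that share mice and reference pools, and are given as a description.

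Pygm stands in a pathway of glycogen and phosphagen metabolism, of which 28 probes of 23 genes were tested in testis. Only 1 was called higher and none lower: Pygb, the brain form of glycogen phosphorylase, at 0.21 ± 0.18 (SD, n = 10; limma adjusted p = 0.0364). That is 3.57% of the list called, against 12.3% of all probes. The testis median of the list was -0.02, against -0.01 over all probes. In cord, 10 of 22 probes of the list were below 0 in all 3 RNAs and 2 above. Of all probes tested, 20.7% were below and 18.5% above 0 in all 3 RNAs. The 10 include Pygm, which was picked on its cord ratio, and probes 7609 and 10638 of the same gene, Aldoa. The list's cord median was -0.16, against -0.00 over all probes tested. That cord median was -0.04 in Cy5 and -0.25 in Cy3.

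The other isoforms of these enzymes were given by role. In cord, Pygb gave -0.11 ± 0.08 (SD, n = 3), and Pygl, the liver form of the phosphorylase, 0.34 ± 0.28 (SD, n = 3), above 0 in all 3 RNAs. Gys1, the glycogen synthase of muscle and brain, gave 0.14 ± 0.03 in cord (SD, n = 3), also above 0 in all 3. Creatine kinase of the brain, Ckb, gave 0.02 ± 0.82 in testis (SD, n = 10) and -0.38 ± 0.15 in cord (SD, n = 3). The mitochondrial form Ckmt1 gave 0.00 ± 0.18 in testis (SD, n = 10) and -0.36 ± 0.08 in cord (SD, n = 3). Both were below 0 in all 3 cord RNAs. Much of this differed by dye: the cord means in Cy5 and in Cy3 were -0.09 and 0.77 for Pygl, -0.06 and 0.34 for Gys1, 0.01 and -0.77 for Ckb, and -0.13 and -0.60 for Ckmt1. The muscle phosphofructokinase Pfkm gave -0.20 ± 0.11 in cord and the regulatory subunit of phosphorylase kinase Phka1 gave 0.02 ± 0.34 (SD, n = 3 each).

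Myoglobin's relatives are the globins. In testis 4 of 9 globin probes (44.4%, against 7.28% of all probes) were called higher. All 4 were of 1 gene, Hba-a1, the alpha chain of haemoglobin, at 0.31 to 0.51. The list's testis median was 0.31, while Mb itself was at -0.17. Of the 8 probes of the red blood cell markers, 6 are of Hba-a1, and the 4 called are the same. Of the other genes of that list, Alas2, an enzyme of haem synthesis, was at 0.06 in testis (limma adjusted p = 0.635) and Slc4a1, the anion exchanger of red cells, at -0.18 (adjusted p = 0.0647). A further Hba-a1 probe was at -0.08. In cord, 1 of 9 globin probes, that of Mb, was below 0 in all 3 RNAs and none was above, with a median of -0.14, which was 0.15 in Cy5 and -0.44 in Cy3. The 6 Hba-a1 probes gave -0.25 to -0.02 in cord, each with 2 of 3 RNAs below 0. Their sign turned with the dye, from 0.06 to 0.28 in Cy5 and from -0.64 to -0.27 in Cy3. Cygb, cytoglobin, gave 1.12 ± 1.14 and Ngb, neuroglobin, 0.10 ± 0.26 in cord (SD, n = 3 each). Both turned sign with the dye, at -0.32 in Cy5 and 2.56 in Cy3 for Cygb, and 0.31 and -0.11 for Ngb. The SD of Cygb between repeat cord arrays was larger than in 98.5% of probes.

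Tnnt3 belongs to the fast-fibre sarcomere, and its list was the least well measured by missing cord values and by repeat testis arrays. Of its 17 probes, 8 (47.1%) could not be tested in cord for want of values, against 16.2% of all probes, and the median SD between repeat testis arrays was 0.81. Between repeat cord arrays that SD was 0.54, below the 0.56 of the slow-fibre and heart sarcomere list. Apart from Tnnt3 itself, whose testis ratio chose it and is not counted, the probe called in testis was that of Mylpf, a light chain of fast myosin, which was higher at 0.24 ± 0.16 (SD, n = 10; limma adjusted p = 0.0196). Most of this came from 1 dye orientation, with a testis mean of 0.41 in Cy5 and 0.07 in Cy3. In cord Mylpf gave -0.16 ± 0.13 (SD, n = 3). Of the 9 probes tested in cord, 3 were below 0 in all 3 RNAs and 1 above (20.7% and 18.5% of all probes), with a median of -0.02. The 2 probes of Myh1, a fast myosin heavy chain, gave -0.02 and -0.23 in cord, and those of Tpm1, tropomyosin, 0.17 and -0.09. All 9 had means closer to 0 than those of Pygm and Mb in cord, but Pygm and Mb were picked on that ratio, so no contrast is drawn. The probes not tested there included Tpm2 (probe 2614) at -5.59 ± 6.68 and Tnnc2 at 3.62 ± 0.67 (SD, n = 2 each). These means are not reliable sizes. Tnnc2 had a cord array at 16.52, a size read here as 1 channel at its floor, which was not tested. Its SD between repeat cord arrays was 11.89.

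The remaining muscle lists are given by their counts. In the slow-fibre and heart sarcomere, 1 probe was called higher and 2 lower of 17 in testis, 17.6% in all against 12.3% of all probes. Of its 15 probes tested in cord, 1 was below and 6 above 0 in all 3 RNAs (20.7% and 18.5% of all probes), with a median of 0.11. Among Z-disc and scaffold genes, 0 of 30 probes were called higher in testis (7.28% of all probes) and 2 lower (6.67%, against 5.06% of all probes). The cord median of that list was 0.01. For excitation-contraction coupling and calcium handling, the list that holds Casq1 and Pvalb, 4 of 17 probes (23.5%, against 5.06% of all probes) were called lower in testis and none higher, with a median of -0.08. Such a share was not particular to this list. Lower calls also made up 42.9% of 7 motor neuron probes, 25% of 8 inhibitory interneuron probes and 14.3% of 14 astrocyte probes in testis. The glycogen and phosphagen, globin and fast-fibre lists had none. Beside Casq1 the probes called lower here were Asph (-0.14), the calcium channel subunit Cacnb1 (-0.16) and a probe of the release channel Ryr1 (-0.15 ± 0.11, SD, n = 10; limma adjusted p = 0.0318). Their testis means in Cy5 and in Cy3 were -0.17 and -0.12 for Asph, -0.02 and -0.29 for Cacnb1, and -0.26 and -0.04 for that Ryr1 probe. The other Ryr1 probe gave 0.05 ± 0.67 in testis. In cord, 5 of 14 probes of this list were below 0 in all 3 RNAs and 3 above, with a median of -0.13. The 5 include Pvalb, which was picked on its cord ratio. Of the muscle regulators and endplate genes, 1 of 9 probes (11.1%, against 5.06% of all probes) was called lower in testis. It was that of Rapsn, which clusters acetylcholine receptors at the endplate (-0.25, limma adjusted p = 0.00471).

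**Figure D4:**
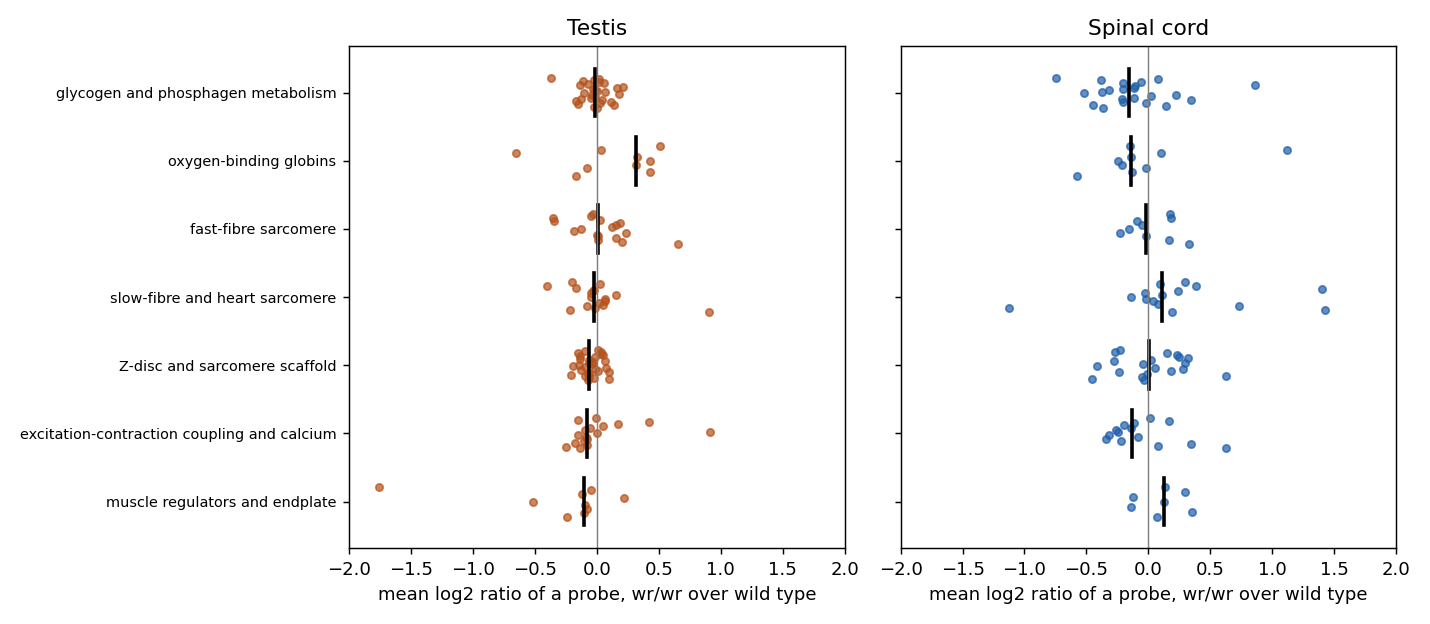
Mean log2 ratio of wr/wr over wild type for every tested probe of 7 muscle lists, testis on the left and cord on the right. Each point is 1 probe and the black bar the list's median; the globin median is 0.31 in testis and -0.14 in cord, and the glycogen and phosphagen median -0.02 in testis and -0.16 in cord.

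Markers of other cell types were set beside these genes. The ratios hold no level, so a list does not show that its cell type was present in the cord RNA. Of all probes tested in cord, 20.7% were below and 18.5% above 0 in all 3 RNAs. In cord, motor neuron markers had a median of -0.41 over 6 probes, 2 of them below 0 in all 3 RNAs and none above. That median was -0.00 in Cy5 and -1.03 in Cy3. Nefh, the heavy neurofilament, was at -0.90. Astrocyte markers had a cord median of 0.20, with 4 of 13 probes below and 5 above 0 in all 3 RNAs, and it was 0.32 in Cy5 and -0.01 in Cy3. Inhibitory interneuron markers, a list that includes Pvalb, had 3 of 7 below and 3 above in cord, with a median of -0.16, which was 0.01 in Cy5 and -0.34 in Cy3. The vesicular GABA transporter Slc32a1 gave -0.38 and Calb2, calretinin, -0.16. Of the GABA-making enzymes, Gad1 (probe 18551) gave 0.34 ± 0.42 and Gad2 -0.26 ± 0.67 (SD, n = 3 each). The cord means in Cy5 and in Cy3 were 0.155 and -0.48 for Calb2, 0.01 and 0.66 for Gad1, and -0.59 and 0.08 for Gad2. Proprioceptive sensory neuron markers, which also include Pvalb, had 5 of 11 below and 2 above, with a cord median of -0.22. That median was -0.11 in Cy5 and -0.34 in Cy3.

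Markers of smooth muscle and peritubular cells, of fat and of connective tissue were also read. Peritubular cells are part of the testis, so their list does not mark tissue carried along at dissection alone. The cord medians were 0.19 for smooth muscle and peritubular cells (15 probes, 1 below and 3 above 0 in all 3 RNAs), 0.13 for fat (7 probes, none and none) and -0.03 for connective tissue (10 probes, none and 2). The first of these medians was -0.07 in Cy5 and 0.22 in Cy3. In testis, none of the probes of these 3 lists was called, of 18, 9 and 11 tested, where 12.3% of all probes were. Germ cell markers in testis had 1 probe called higher and 1 lower of 11, 18.2% in all against the same 12.3%. The part of any of these cells in the ratios of Pygm, Mb, Casq1 or Pvalb was not tested.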

How the data were processed

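The wr/wr RNAs were compared with wild-type pools on 50 arrays with 2 colours. Per the labels' protocols, total RNA was purified on silica columns and 20 µg were reverse transcribed and labelled indirectly. The deposited file holds 1 log2 ratio per probe and array, made by the authors. How these were background-corrected, normalized and filtered is not given in the sources used here, nor is the base of the logarithm, which was read as 2. No spot intensities were used. Of the probes, 14030 carried 1 gene symbol in the platform annotation, 5 several and 6320 none, and no gene was named from a probe with several.

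Arrays were centred on their medians. Per RNA, the Cy5 and the Cy3 arrays were averaged, and then these means. A probe was tested with both dyes in at least 8 of 10 testes, or in all 3 cord RNAs. Means were tested against 0, 2-sided, by lmFit and eBayes (limma 3.58.1, R 4.3.3), with Benjamini-Hochberg adjustment over all probes at 0.05. The script was tested on simulated data. Figures were drawn with matplotlib 3.10.9. The number of arrays limits the precision, and repeat arrays of an RNA show technical spread only.

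The members and gene lists were chosen with earlier results of these data known. Beside the members, the isoforms and partners named were listed by role, and the likeness rule took the 2 probes with the highest r. The alternatives were centring, scaling, floored ratios, the filter on missing values, averaging probes of a symbol, the median in place of the mean within a dye, each dye alone, a turned sign, and leaving out each RNA. The cord RNAs and testes share mice. Deviations from the tissue means of each cord RNA and of its testes had an r of -0.00867 (pool1), 0.00547 (pool2) and 0.00842 (mouse 5995), and the pairing rests on the mice alone.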

Additional observations from a re-analysis of the deposited data

Results flagged for a closer look

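Isoforms, partners and members named above were checked for a testis mouse far from the others, over 47 probes, and chance flags about 1 in 20 such groups. No probe of Pygm, Ckm, Mb, Casq1, Pvalb or Tnnt3 was among the 12 that met this. Of the 12, 7 lay in mouse 6065. There, Gys1 was at 0.39 and a probe of Acta2, smooth muscle actin, at 0.64, each above the next mouse, with the other Acta2 probe at -0.36. In the same testis, Pygl was at -1.34, a probe of the phosphoglycerate mutase Pgam2 at -0.99 (the other at 0.39), the alpha-actinin Actn3 at -1.10, Cygb at -0.92 and the heart actin Actc1 at -0.84, each below the next mouse. In mouse 5995, desmin (Des) was at 0.60 and a probe of Ryr1 at -1.52. A probe of Gad1 was at -0.93 in mouse 5906, a probe of Hba-a1 at -0.56 in mouse 6493, and Casq2, the calsequestrin of heart, at 3.27 in mouse 5907. Some of these values turned sign with the dye. In Cy5 and in Cy3 they were -2.36 and 0.37 for Pgam2, and -2.20 and 0.35 for Cygb. Gys1 was at -0.05 and 0.83, and Hba-a1 at -1.23 and 0.10. The other flagged probes had the same sign in both dyes, though Des was at 1.16 and 0.04.

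Of 30 probes of the other named genes, 6 differed between testis and cord by limma's test of the difference (20%), a share near the 21.2% of all probes. Testis minus cord was 0.36 for Ckmt1 (0.00 in testis and -0.36 in cord, adjusted p = 0.0382) and 0.39 for Mylpf (0.24 in testis and -0.16 in cord, adjusted p = 0.021). It was 0.53, 0.67 and 0.47 for 3 probes of Hba-a1 (adjusted p = 0.0411, 0.0374 and 0.0281). It was -0.31 for a probe of Ryr1 (-0.15 in testis and 0.16 in cord, adjusted p = 0.0237). In the paired fit, which called 0 probes in all, none of these passed (2148 probes had an unadjusted p under 0.05).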

How the results depend on the processing

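The 2494 testis calls became 1360 on the Cy3 arrays alone (38.4% higher, against 59.0% on all arrays) and 949 with the sign of the Cy3 arrays turned, which is the same test as that of the dye difference. Leaving out 1 mouse gave 755 to 2584 calls, and the count moved by over 1.5 times without mouse 5906, 5907, 6069, 6335, 5995 (1495) or 6493. The 3604 tissue differences became 1589 on the Cy5 arrays alone, 1832 with the sign turned and 0 with the replicate block that pairs each cord RNA with the testes of its mice. The 949 dye differences in testis became 2015 with arrays scaled to a common spread and 627 with probes of a symbol averaged. Without 1 mouse they ranged from 1 to 1317, with 1 to 4 calls without mouse 5906, 5907, 6069, 6335, 5995 (4), 5905, 6163 or 5997. The cord calls stayed at 0 under every alternative run. The cause was not tested.

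Among the genes themselves, Casq1 in testis was 0.0966 (adjusted p = 0.0995) with the sign of the Cy3 arrays turned, and its adjusted p ranged from 0.0151 to 0.308 over 20 alternatives. Pygm in testis had an adjusted p of 0.257 or more under all 20, and Pvalb of 0.273 or more. Tnnt3 (probe 2383) in testis ranged from -0.79 to 1.44, and Ckm from -0.47 to 0.45. Pygm in cord ranged from -0.90 to 0.15 over 13 alternatives, the last with the sign turned. Mb in cord ranged from -0.78 to -0.21, Pvalb from -0.34 to 0.14 and Casq1 from -0.58 to 0.36, with the highest values again from the turned sign. The median within a dye equals the mean, since no RNA had over 2 arrays in a dye. The cord ratios rest on 3 RNAs.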
